A study of Mus musculus with 6 samples.

Results

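The genes described here are 10 genes of the acute-phase response: the serum amyloid A genes *Saa1*, *Saa2*, *Saa3* and *Saa4*, the orosomucoid genes *Orm1* and *Orm2*, haptoglobin (*Hp*), hemopexin (*Hpx*), lipocalin 2 (*Lcn2*) and serum amyloid P (*Apcs*). They were chosen from gene families whose BHPF-to-control ratios on these arrays were already known, so every level and ratio below is a description and carries no test. Each gene was measured by 1 probe, which makes 10 of the 55681 probes other than controls and 10 of the 20284 gene symbols on the array. RNA was taken from the liver, ovary and uterus of female CD-1 mice, an outbred stock, that were immature, with an age of 24 days in the labels. BHPF mice received fluorene-9-bisphenol, a substitute for bisphenol A, by the intragastric route at 50 mg per kg body weight each day for 3 days, and control mice received the vehicle, peanut oil. The sources differ on whether the stated age is that of the first dose or of tissue collection. Each of the 6 groups was a single one-colour Agilent array hybridized with RNA pooled from 3 mice, so the spread between animals was not measured and no difference could be tested. The 6 arrays shared 1 slide and 1 scan, with the control arrays in one row of the slide and the BHPF arrays in the other, so slide row and treatment cannot be told apart.

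The acute-phase response is the change in plasma proteins that follows infection or tissue injury. Interleukin 6 and interleukin 1 act on hepatocytes through STAT3, NF-kB and C/EBP factors, and the liver then secretes more serum amyloid A, orosomucoid, haptoglobin and hemopexin, and less albumin and transferrin. Serum amyloid A binds to high-density lipoprotein, haptoglobin and hemopexin capture free haemoglobin and haem, and serum amyloid P is the major mouse pentraxin. *Saa3* and *Lcn2* are also made outside the liver, by macrophages, adipocytes, epithelia and, for *Lcn2*, by maturing neutrophils, in which it is a granule protein that binds bacterial siderophores.

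A level is the log2 intensity of a probe minus the 75th percentile of its array, and a log2 ratio is the level with BHPF minus the level of the control in the same tissue. A difference of 1 on this scale is 2-fold. Spots of 1 probe repeated on an array give such a ratio an SD between 0.13 and 0.14, which leaves out the variation between pools. Where a probe was well above background on 1 of the arrays compared, the other array was set at its lowest level well above background, or at the probe's own level where that was higher, and the ratio is a bound. The tissue labels fitted their defining genes, with all 18 hepatocyte markers above background on both liver arrays, all 14 ovary markers on both ovary arrays and all 14 uterus markers on both uterus arrays. No ovary marker differed by 2-fold between the ovary arrays and no uterus marker between the uterus arrays, and 10 housekeeping genes had median log2 ratios of 0.01 in liver, 0.12 in ovary and 0.01 in uterus. Before the uterus values are read, 2 facts about those arrays are needed. The authors also deposited a table of normalized log2 values, in which the column headed control uterus matched the scanner file labelled BHPF uterus at 100% of 38314 probes, and the reverse. The scanner files are used here under their own labels. If the headings of that table are right, every sign in the uterus turns, and the control uterus levels given here are those of BHPF mice. Genes of hepatocytes were also high on the BHPF uterus array, as described with the uterus values.

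In control mice all 10 genes had their highest level in the liver. Against the control ovary array, 10 of 10 were at least 2-fold higher in liver, which 17.4% of all evaluated probes were, and 6 of 10 were at least 64-fold higher, which 1.31% of probes were. Against the control uterus array, 9 of 10 were at least 2-fold higher in liver (15.9% of all probes) and 5 of 10 at least 64-fold higher (1.23%). These 5 were *Saa4*, *Orm1*, *Orm2*, *Hpx* and *Apcs*, and they are the ones whose RNA was nearly limited to liver. *Orm1* was at 5.01 on the control liver array, at −5.76 on the control ovary array and not well above background on the control uterus array. *Hpx* was at 5.38 in liver, −3.46 in ovary and −3.96 in uterus. *Saa4*, a constitutive form of serum amyloid A, was at 4.03 in liver and not well above background in control ovary or uterus. *Saa4* was thus detected in liver alone among the control tissues, under the labels of the scanner files. Under the headings of the authors' table the control uterus would have all 5 of these genes well above background. Their levels there would be −3.61 for *Saa4*, −1.41 for *Orm1*, −2.08 for *Orm2*, −2.83 for *Apcs* and 0.03 for *Hpx*.

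The other 5 genes were well above background in all 3 control tissues, as was *Hpx*. *Lcn2* was at 5.19 in liver, 0.96 in ovary and 4.24 in uterus, so that liver exceeded uterus by 0.95, less than 2-fold. *Saa3* was at 4.72 in liver, 0.14 in ovary and 1.84 in uterus. *Saa1* was at 5.24, 0.14 and 1.55 and *Hp* at 5.14, 0.02 and 1.1 in the same order of tissues. The liver exceeded the uterus by 2.89 for *Saa3*, 3.70 for *Saa1*, 4.04 for *Hp* and 5.01 for *Saa2*. Detection alone thus does not set *Saa3* and *Lcn2*, grouped here as locally made, apart from *Saa1* and *Hp*, which were also well above background in control ovary and uterus. Detection does not show where an RNA was made. Of the 18 hepatocyte markers, 17 were well above background on the control ovary array and 15 on the control uterus array. The place of synthesis was not tested. Of the 9 genes evaluated in control uterus against control ovary, 5 were at least 2-fold higher in uterus, against 11.9% of all evaluated probes, and none by 64-fold (0.174% of probes). These were the same 5 genes, from 1.08 for *Hp* to 3.28 for *Lcn2*. For 3 of the 9 the uterus value was below that of ovary, with *Hpx* at −0.50 and, as bounds, *Apcs* at −0.59 or lower and *Orm1* at −0.05 or lower.

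**Figure D1:**
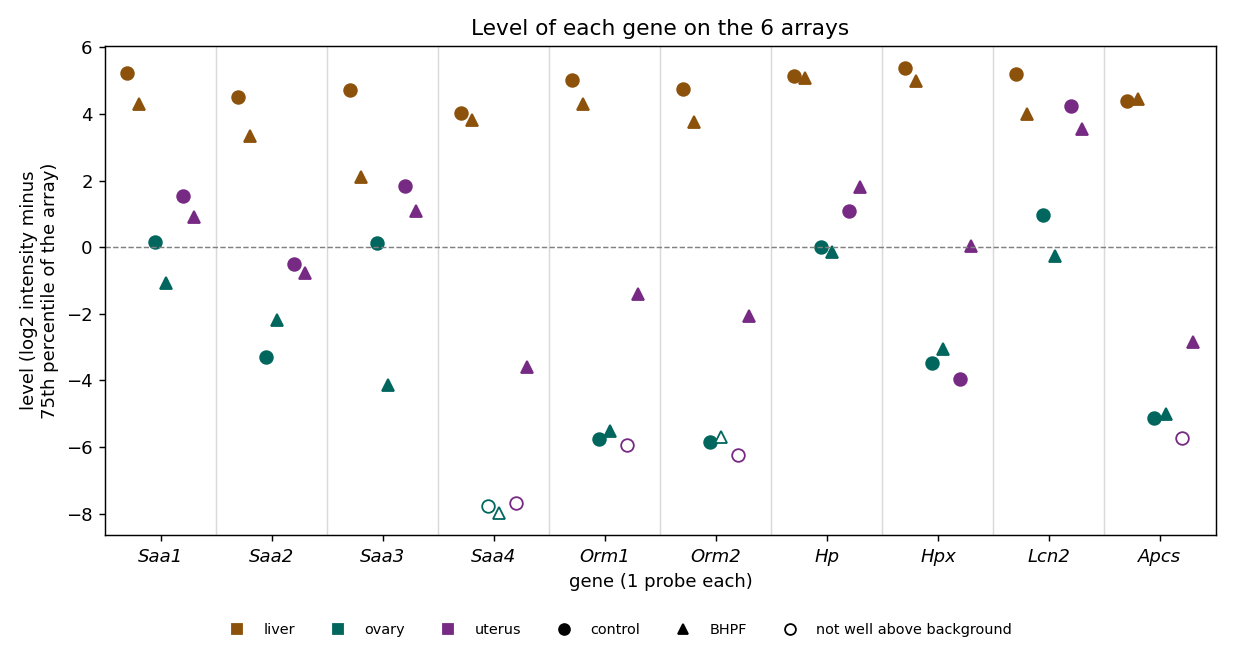
Level of each of the 10 genes on the 6 arrays, as log2 intensity minus the 75th percentile of the array, with circles for control, triangles for BHPF and open symbols where the probe was not well above background. Liver symbols are highest for every gene in control mice, while *Lcn2* in uterus lies at 4.24 and 3.55, and *Saa3* in ovary goes from 0.14 to −4.13.

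Sequence before the transcription start is shown for 5 of the genes: *Saa1* and *Saa2*, which are near copies with opposite ratios in the ovary, *Saa3* and *Lcn2*, which had the lowest liver ratios, and *Orm2* for the orosomucoids. C/EBP motifs are a known feature of acute-phase promoters. The windows are the 250 bases before the start in RefSeq on GRCm38.p6, read 5′ to 3′ on the strand of the gene, with capitals for each match to TTGCNNAA on either strand (TTNNGCAA on the opposite one). They lie at chr7:46742981-46743230 (minus strand) for *Saa1*, chr7:46751583-46751832 (plus) for *Saa2*, chr7:46715677-46715926 (minus) for *Saa3*, chr4:63362199-63362448 (plus) for *Orm2* and chr2:32387740-32387989 (minus) for *Lcn2*.
Saa1: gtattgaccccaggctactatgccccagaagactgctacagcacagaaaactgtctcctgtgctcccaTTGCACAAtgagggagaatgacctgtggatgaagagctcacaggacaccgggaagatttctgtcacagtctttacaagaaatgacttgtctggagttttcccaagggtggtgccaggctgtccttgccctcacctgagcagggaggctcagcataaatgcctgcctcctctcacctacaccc
Saa2: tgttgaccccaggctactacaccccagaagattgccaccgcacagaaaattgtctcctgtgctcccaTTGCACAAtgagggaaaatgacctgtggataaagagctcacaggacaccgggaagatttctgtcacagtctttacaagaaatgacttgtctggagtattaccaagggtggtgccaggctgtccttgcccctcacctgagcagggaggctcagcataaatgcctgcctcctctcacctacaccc
Saa3: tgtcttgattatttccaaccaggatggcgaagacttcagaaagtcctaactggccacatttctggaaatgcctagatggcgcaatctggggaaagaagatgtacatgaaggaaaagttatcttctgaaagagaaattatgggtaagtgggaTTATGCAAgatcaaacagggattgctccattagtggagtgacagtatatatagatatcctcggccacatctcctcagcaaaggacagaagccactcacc
Orm2: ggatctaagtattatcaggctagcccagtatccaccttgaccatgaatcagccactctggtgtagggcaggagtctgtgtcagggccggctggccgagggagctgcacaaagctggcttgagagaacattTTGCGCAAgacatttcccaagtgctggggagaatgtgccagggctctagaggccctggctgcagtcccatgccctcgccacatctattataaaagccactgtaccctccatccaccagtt
Lcn2: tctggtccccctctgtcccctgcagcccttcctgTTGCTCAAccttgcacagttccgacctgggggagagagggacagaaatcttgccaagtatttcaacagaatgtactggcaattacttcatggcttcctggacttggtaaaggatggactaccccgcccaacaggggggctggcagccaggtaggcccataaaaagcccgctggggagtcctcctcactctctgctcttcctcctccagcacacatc

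The RefSeq table held such a window for 8 of the 10 genes, all but *Orm1* and *Hp*. The *Saa1* and *Saa2* windows had 238 identical bases among 249 aligned, or 95.6%, and both hold TTGCACAA. The match in *Orm2* is the palindrome TTGCGCAA, which reads the same on both strands and begins 120 bases before the start. TTGCNNAA was present in 7 of the 8 windows, all but *Apcs*, and in 9.56% of all 32851 windows in the table. The motif CTGGGAA, searched on both strands as an acute-phase STAT3 element, was found in the *Apcs* window alone among these 8, at 2 places, and in 9.1% of all windows. The STAT motif TTCNNNGAA, which is its own reverse complement, was likewise in the *Apcs* window alone among the 8, and in 7.02% of all. A loose NF-kB motif, GGG and CC with 5 bases of any kind between them, searched on both strands, was in 4 of the 8 windows, *Saa1*, *Saa2*, *Saa4* and *Lcn2*, and in 45.8% of all, so its share among these genes was near that of all promoters. TATAAA was in 1 of the 8, *Orm2*, and in 12.4% of all. The 5 motifs listed are all that were searched, and the matches are letters in a window and not measured binding sites.

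In the liver most of the 10 genes were lower with BHPF. Of the 10 genes, 9 had a log2 ratio below 0 and 3 were at least 2-fold lower, *Saa3*, *Lcn2* and *Saa2*, while 1.07% of all 36579 evaluated liver probes were at least 2-fold lower. None was at least 2-fold higher, against 6.02% of probes. The median over the 10 was −0.83, beside 0.06 over all evaluated probes. The serum amyloid A genes differed among themselves. *Saa3* went from 4.72 to 2.11, a ratio of −2.61 or 6.12-fold. *Saa2* went from 4.51 to 3.35, a ratio of −1.15, and *Saa1*, its near copy, from 5.24 to 4.31, a ratio of −0.94. *Saa4*, which is not inducible, went from 4.03 to 3.82, a ratio of −0.21. The ratios of the inducible genes of this family were thus further below 0 than that of the constitutive one.

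The lipid- and drug-binding orosomucoids were also lower with BHPF in the liver. *Orm1* went from 5.01 to 4.29, a ratio of −0.72, and *Orm2* from 4.76 to 3.77, a ratio of −0.99 that fell just short of 2-fold. *Lcn2* went from 5.19 to 4.01, a ratio of −1.19. The scavengers of haemoglobin and haem moved less, *Hp* from 5.14 to 5.07 (−0.07) and *Hpx* from 5.38 to 5.0 (−0.38). *Apcs* was at 4.39 and 4.45, a ratio of 0.05, so that *Hp* and *Apcs* differed by less than the noise between spots. Among the 3780 probes with a mean liver level of at least 3, a limit set after the values were seen, 4 probes were at least 2-fold lower (0.106%). They were those of *Saa2*, *Saa3*, *Lcn2* and *Orm3*, the third orosomucoid gene, which went from 3.98 to 2.83. The limit shut out the neutrophil gene *S100a9*, which had a ratio of −2.27 at a mean level of 2.83, so the make-up of this set depends on the limit. When the 50th percentile replaced the 75th, the median over all liver probes became −0.22, 6 of the 10 genes were at least 2-fold lower and their median was −1.14. *Apcs* then changed sign.

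**Figure D2:**
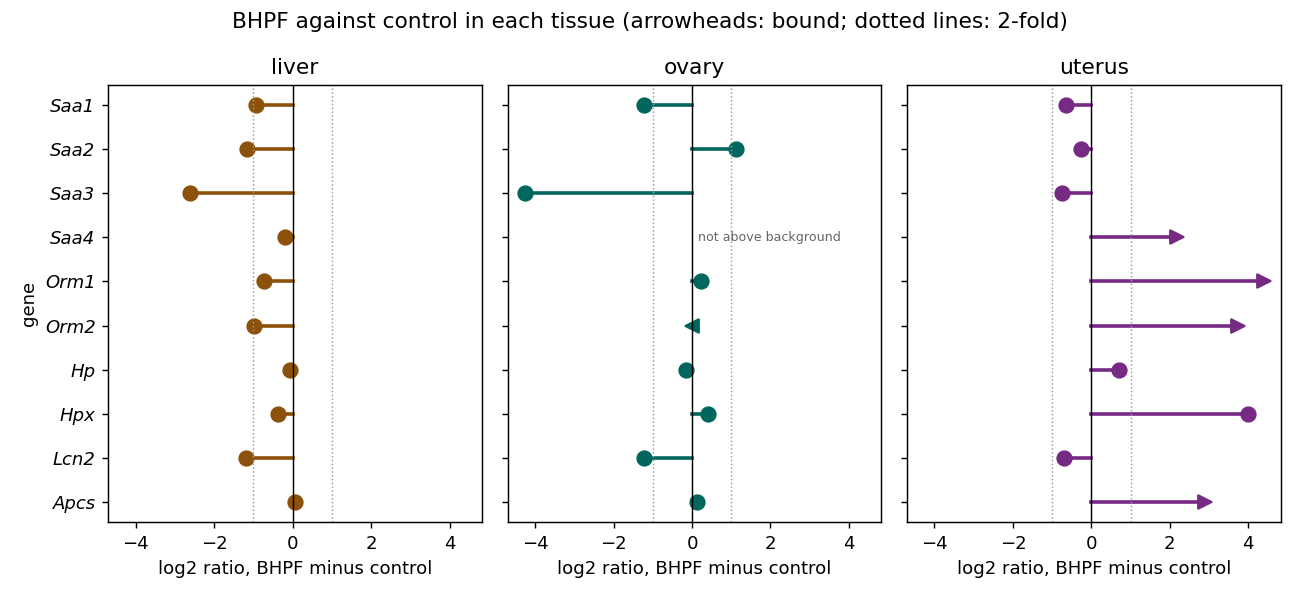
Log2 ratio of BHPF minus control for each gene in liver, ovary and uterus, with dotted lines at 2-fold and arrowheads where the ratio is a bound. In liver 9 of 10 genes lie below 0, in ovary *Saa3* lies at −4.27 and *Saa2* at 1.13, and in uterus 5 genes lie at 2.20 or above while *Saa1*, *Saa2*, *Saa3* and *Lcn2* lie below 0.

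In the ovary the genes differed in direction. Of 9 evaluated genes 3 were at least 2-fold lower, *Saa3*, *Lcn2* and *Saa1*, against 0.593% of 41676 evaluated probes, and 1 was at least 2-fold higher, *Saa2*, against 0.681%. *Saa3* went from 0.14 to −4.13, a ratio of −4.27 or 19.3-fold, which was the lowest ratio among all evaluated ovary probes. It stayed well above background on the BHPF array, at an intensity of 365 where the lowest intensity well above background was 119.6. *Lcn2* went from 0.96 to −0.28, a ratio of −1.24. *Saa1* went from 0.14 to −1.08, a ratio of −1.22. All 3 of these genes also had negative ratios in the liver.

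*Saa2* went the other way in the ovary, from −3.31 to −2.18, a ratio of 1.13. The *Saa1* and *Saa2* probes thus moved in opposite directions between the same arrays, although the genes are near copies. The probe sequences are not given in the sources used here, so whether either probe also binds the RNA of the other gene was not tested, and RefSeq lists each symbol among the synonyms of the other. With normexp background correction the ratio of *Saa2* was 0.85, under 2-fold, and that of *Saa1* was −1.26. The remaining genes changed by less than 2-fold or were not evaluated in the ovary. *Hp* was at 0.02 and −0.14, a ratio of −0.15, and *Hpx* at −3.46 and −3.07, a ratio of 0.39. *Orm1*, at −5.76 and −5.52 (0.24), and *Apcs*, at −5.13 and −4.99 (0.14), were nearer to the lower end of detection. For *Orm2*, well above background on the control array only, the bound gave no difference, and neither ovary array had *Saa4* well above background.

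In the uterus the 10 genes split into 2 groups. *Orm1*, *Hpx*, *Orm2*, *Apcs* and *Saa4*, the 5 that were nearly limited to liver in control mice, were at least 2-fold higher with BHPF, which 1.88% of 38803 evaluated probes were. The same control uterus array entered both that grouping and these ratios, so the match between them is not independent. No gene was at least 2-fold lower, against 0.773% of probes. *Orm1* was not well above background on the control array and at −1.41 with BHPF, higher by at least 4.39 or at least 20.9-fold. *Orm2* was higher by at least 3.73, reaching −2.08, *Apcs* by at least 2.88, reaching −2.83, and *Saa4* by at least 2.20, reaching −3.61. *Hpx* was measured on both arrays and went from −3.96 to 0.03, a ratio of 3.99. *Hp*, which was well above background in the control uterus, went from 1.1 to 1.81, a ratio of 0.72.

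The remaining 4 genes were lower in the BHPF uterus, each by less than 2-fold. *Saa3* went from 1.84 to 1.08 (−0.76), *Lcn2* from 4.24 to 3.55 (−0.69), *Saa1* from 1.55 to 0.91 (−0.64) and *Saa2* from −0.50 to −0.77 (−0.27). The first 3 had negative ratios in liver, ovary and uterus alike. Since every uterus value rests on the same pair of arrays, the 4 ratios are not independent of each other.

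Hepatocyte markers moved with the first of these groups. All 18 of them had a ratio above 0 in the uterus, with a median of 4.02, and 17 reached 2-fold. They summed to a linear level of 4.84 on the control uterus array and 65.2 on the BHPF uterus array, beside 747 in control liver and 740 in BHPF liver. *Alb*, which encodes albumin, went from −0.92 to 3.36, and *Ttr*, a carrier of thyroxine and retinol-binding protein, from −1.33 to 2.46. Markers not well above background on the control uterus array numbered 3, and the BHPF uterus array had none. In the ovary their median was 0.11 over 17 genes, with summed levels of 13.5 and 15.6 and *Tdo2* at background. The part of these markers' RNA in the uterus values of the 5 genes was not tested.

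The size of the rise was set against the liver level. Over 461 liver-specific probes, whose control liver signal was 64-fold or more above that in both control ovary and control uterus, the linear excess of the BHPF uterus over the control uterus had a median of 0.657% of the control liver level, with quartiles of 0.340% and 1.31%. In the ovary the same median was 0.0231%. The control ovary and control uterus arrays each entered both the choice of these probes and the excess in their tissue. The choice of probes dim on those arrays therefore favours an excess above 0, and for the uterus it rests on the scanner labels. Over the 138 of these probes whose level in control liver was 4 or more, which is the range of the 10 genes, the median was 1.39% with quartiles of 0.853% and 2.60%. The excess was 0.473% for *Saa4*, 0.578% for *Apcs*, 0.830% for *Orm2*, 1.12% for *Orm1*, 2.30% for *Hpx* and 3.91% for *Hp*. Of these, *Orm1* and *Hpx* lie between the quartiles of the 138 probes, *Saa4*, *Apcs* and *Orm2* below them and *Hp* above. The full range of those probes, from −0.0949% to 15.6%, is too wide to tell genes apart. Set against the BHPF liver level, which was lower for the orosomucoids and *Hpx*, the excess was 1.84% for *Orm1*, 1.65% for *Orm2*, 2.99% for *Hpx* and 4.10% for *Hp*. The quartiles of the 138 probes were then 0.891% and 2.77%. *Orm1* and *Orm2* lay between them, *Hpx* and *Hp* above, and *Saa4* (0.545%) and *Apcs* (0.557%) below.

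**Figure D3:**
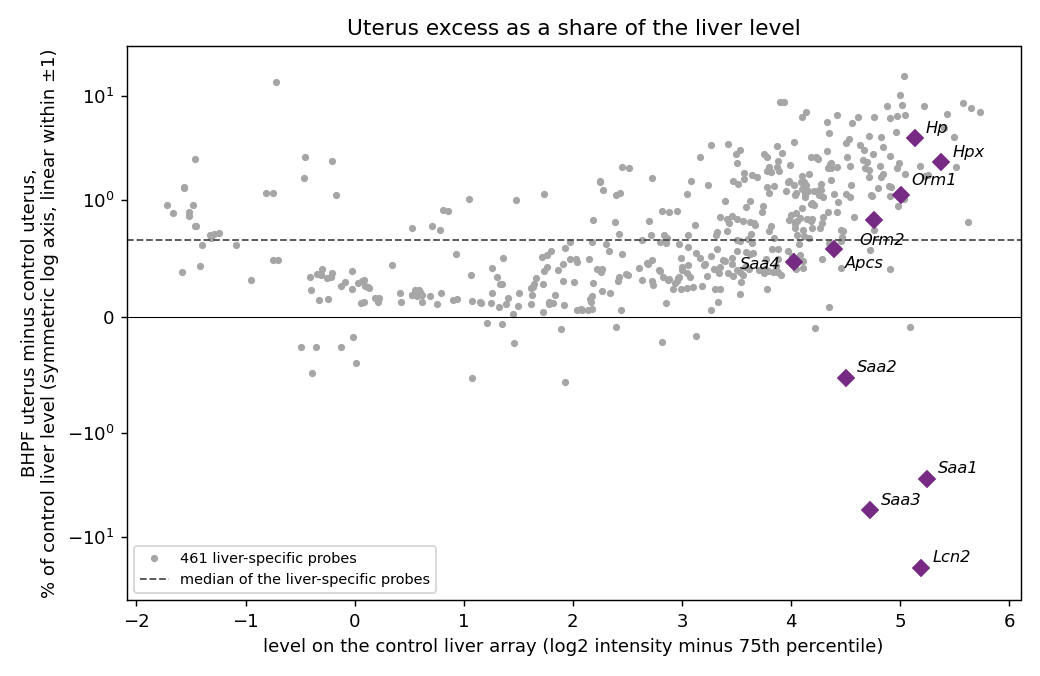
Linear difference between the BHPF and control uterus arrays as a percentage of the control liver level (symmetric log axis), against the level on the control liver array, for 461 liver-specific probes in grey and the 10 genes as diamonds. The diamonds of *Saa4*, *Apcs*, *Orm2*, *Orm1*, *Hpx* and *Hp*, from 0.473% to 3.91%, lie among the grey points, and those of *Saa1*, *Saa2*, *Saa3* and *Lcn2* lie below 0.

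A share of liver RNA was also subtracted from the BHPF uterus array, a calculation added after the values were seen. The share was 0.653% of the BHPF liver level, the median of the 461 probes, or 1.41%, the median of the 138 brighter ones. With either share *Saa4* and *Apcs* were no longer well above background. *Orm1* was then higher by at least 3.79 with the smaller share and at least 2.49 with the larger. *Orm2* was higher by at least 3.05 and at least 1.34, so that its bound depended most on the share. The ratio of *Hpx* was 3.66 and 3.15 and that of *Hp* was 0.62 and 0.51. Each share is a median, so liver-specific probes with an excess above it would also stay higher after subtraction. Against the BHPF liver level the upper quartile of the 138 probes was 2.77%. That is above the 1.84% of *Orm1* and 1.65% of *Orm2*, and below the 2.99% of *Hpx* and 4.10% of *Hp*. Whether the remaining ratios go beyond a share of liver RNA was not tested. Subtraction from the BHPF array alone can only lower a ratio, so the genes already below 0 had to move further from it. With the smaller and larger share *Saa1* was at −0.74 and −0.87 and *Saa2* at −0.44 and −0.67. *Saa3* was at −0.78 and −0.80 and *Lcn2* at −0.70 and −0.72.

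Under the labels of the scanner files, neutrophil markers had negative medians in the 3 tissues, and macrophage markers in liver and ovary only. In the liver all 16 evaluated neutrophil genes other than *Lcn2* had ratios below 0, with a median of −2.42, and 12 fell by 2-fold or more, as 1.54% of all named genes did, while 3.2% of named genes were higher by that much. Among the brightest, *S100a9* and *S100a8*, calcium-binding alarmins, had ratios of −2.27 and −2.73, and *Csf3r*, the receptor for granulocyte colony-stimulating factor, of −0.15. The summed level of the list was 64.7 in control and 25.5 in BHPF liver, with *Fcnb* at background on both. In the ovary 13 of 14 neutrophil genes were below 0, 7 of which fell by 2-fold or more (0.617% of named genes, with 0.474% higher), and the list had a median of −1.10, summed levels of 14.3 and 11.7, and *Mpo*, *Elane* and *Fcnb* at background. Most of both ovary sums was *Csf3r*, at 3.47 and 3.46, while the next brightest, *S100a9*, went from 0.18 to −2.37. In the uterus 10 of 15 were below 0, 6 of which fell by 2-fold or more (0.823% of named genes), and the list had a median of −0.53, summed levels of 33.6 and 29.6, and *Elane* and *Fcnb* at background.

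Of 13 macrophage genes, 11 were below 0 in the liver, 2 of them by 2-fold or more, with a median of −0.19 and summed levels of 118 and 94.9. In the ovary 10 of 13 were below 0 and 2 reached 2-fold, the median being −0.59 and summed levels of 26.0 and 17.2. *Adgre1*, the gene of the F4/80 antigen, had a ratio of −1.20 there and *Lyz2* one of −0.67. In the uterus 8 of 13 were above 0, with 2 at least 2-fold higher and 1 lower by as much, a median of 0.08 and summed levels of 27.8 and 27.0. No macrophage marker was at background in any tissue. Of the adipocyte genes, 6 of 12 were below 0 in the ovary and 9 of 11 in the uterus, with medians of 0.01 and −0.54, summed levels of 20.0 and 21.5 in ovary and 15.4 and 10.2 in uterus, and with *Lep* and *Ucp1* at background in both and *Plin1* in uterus. In the liver their median was −0.20, with summed levels of 37.9 and 36.3 and with *Lep*, *Plin1*, *Ucp1* and *Acvr1c* at background. At least 2-fold lower in the uterus were *Fabp4*, a fatty acid binding protein (−1.46), and the secreted adipocyte proteins *Cfd* (−2.71) and *Adipoq* (−3.31). In the ovary *Cfd* (2.05) and *Adipoq*, from a level of −3.62 to −2.27, were at least 2-fold higher, and in the liver *Cfd* was lower (−1.63). *Cfd* and *Adipoq* were named after their values were seen. The part of these cells in the values of *Saa3*, *Lcn2* and *Saa1* was not tested, and in pooled tissue RNA fewer cells of a type and less RNA per cell cannot be told apart.

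**Figure D4:**
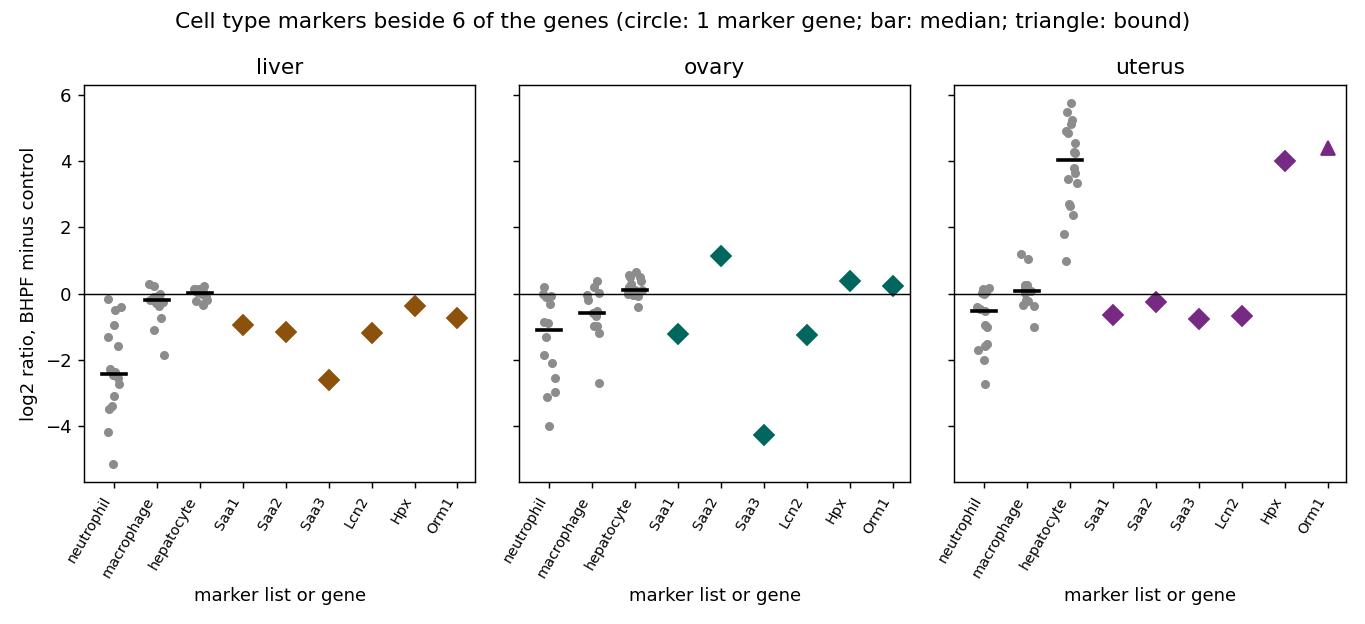
Log2 ratio of BHPF minus control for single genes of the neutrophil, macrophage and hepatocyte lists (grey circles, with a bar at the median) and for 6 of the 10 genes, in liver, ovary and uterus; a triangle is a bound. Neutrophil medians lie at −2.42, −1.10 and −0.53 in the 3 tissues, and the hepatocyte median lies at 0.02 in liver, 0.11 in ovary and 4.02 in uterus.

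The genes nearest in pattern were found among 17598 probes with a symbol and well above background on all 6 arrays, by the root mean square difference of levels after each probe was centred on its own mean over the 6 arrays. Since 3 tissues set most of the variation, these distances describe tissue pattern first. For *Saa3* the nearest genes were *S100a8* (0.67), *Retnlg* (0.75), a resistin-like gene of neutrophils, and *Marco* (0.83), a scavenger receptor of macrophages. For *Saa1* they were *Pira2* (0.29), *Lilra6* (0.32) and *Gm14548* (0.33), the first of which encodes a paired immunoglobulin-like receptor of myeloid cells. For *Hpx* they were *Cyp2c38* (0.24), *Lect2* (0.26) and *Rdh7* (0.26), of which *Lect2* encodes a protein secreted by the liver. The nearest to *Lcn2* were *Cadm3* (0.46), *Cib3* (0.48) and *Ocln* (0.51), and the nearest to *Saa2* were *Agmo* (0.46), *Aspg* (0.48) and *F5* (0.52). Those nearest to *Hp* were *Zap70* (0.16), *Iigp1* (0.16) and *Slc46a3* (0.18). The remaining 4 genes were not well above background on every array and were left out of this search.

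Other genes of the response were taken from lists chosen with earlier results known. Of 21 other acute-phase genes evaluated in the liver, 17 were below 0, and the median was −0.19 beside 0.0 over all named genes. The only one that was 2-fold lower was *Cd14*, a coreceptor for lipopolysaccharide, at −2.25. The brightest were *Serpina1a* (0.07), *Fgb* (−0.19), *C3* (−0.06) and *Cp* (−0.26). Fibrinogen, complement and ceruloplasmin thus differed by less than *Saa1*, *Saa2*, *Saa3* or *Lcn2*. Their ratios were like those of *Hp* (−0.07), *Apcs* (0.05), *Saa4* (−0.21) and *Hpx* (−0.38). Dimmer genes of the list, named after their values were seen, included *Mt1* (−0.88), *Steap4* (−0.66) and *Lbp* (−0.51). Those ratios lay nearer to *Orm1* (−0.72) and *Saa1* (−0.94). In the ovary 12 of 18 genes of the list were below 0, none by 2-fold, with a median of −0.24. *C3* had a ratio of −0.67 there. In the uterus 17 of 21 were above 0 with a median of 1.14, and 11 rose by 2-fold or more, as 2.27% of named genes did. The brightest there, *Mt2* (0.04), *C3* (−0.09), *Fn1* (0.18) and *Mt1* (0.16), changed little. Genes whose products fall in an acute-phase response had a median of 0.05 over 14 genes in the liver, with *Alb* at −0.30 and *Trf*, which encodes transferrin, at 0.05, and none changed by 2-fold. Their median was 0.08 in the ovary and 2.97 in the uterus, where 12 of 14 were at least 2-fold higher. Both lists share genes with the hepatocyte markers, among them *Serpina1a*, *Fgb*, *Alb* and *Ahsg*, so their uterus counts are partly the same measurements.

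The cytokines, receptors and transcription factors that induce these genes differed less. In the liver 18 of 26 were below 0 and 1, *Il1b*, was at least 2-fold lower, at −1.55. The median was −0.12, and the brightest were *Il6ra* (−0.07), *Nfkbia* (0.08), *Cebpb* (−0.13) and *Jak1* (0.15). *Stat3* had a ratio of −0.05 and its target *Socs3* one of −0.85, and *Il6* was not well above background on either liver array. In the ovary *Il1b* was again the only one of 26 that was at least 2-fold lower, at −1.18, with a median of 0.05, and in the uterus none of 27 changed by 2-fold, with a median of 0.01. *Stat3*, *Socs3*, *Il6*, *Il1b* and *Cd14* were named after their values were seen, as were *Fpr1*, *Fpr2*, *Tlr2* and *Cd163* among the receptors. Of 15 receptor and clearance genes in the liver, 9 were below 0, with a median of −0.31. At least 2-fold lower were *Fpr2* (−2.05), a formyl peptide receptor that binds serum amyloid A, and *Tlr2* (−1.13). *Cd163*, the haptoglobin-haemoglobin receptor, was at least 2-fold higher (1.27), at levels of −5.35 and −4.08. In the ovary 11 of 15 were below 0, with a median of −0.22, and *Fpr1* (−1.47) and *Fpr2* (−1.63) were at least 2-fold lower. In the uterus the median was 0.01 and none changed by 2-fold. *Slc22a17*, a receptor for lipocalin 2, had ratios of 0.07, 0.14 and −0.21 in liver, ovary and uterus.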

How the data were processed

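One-colour Agilent SurePrint G3 mouse arrays were read for 6 samples, each a pool of 3 mice. The authors deposited scanner files with the intensity of each spot on a linear scale, background-subtracted and detrended within the array, and their own table of log2 values after a percentile shift in GeneSpring. The file headers name Agilent Feature Extraction 11.5.1.1, while the submitters' processing notes name version 9.1. The deposited files also hold other columns, flags for spots well above background, saturated or outlying.

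Control and outlier spots were left out, log2 intensities were averaged per probe, and the 75th percentile was subtracted within each array. Probes were evaluated in a tissue if either array of the pair flagged them well above background, as each array did for 61.3% to 74.5% of probes. No probe was saturated. The lowest intensity well above background lay between 70.0 and 135. Precision is limited by the single array per group. Symbols came from accessions matched to RefSeq (GRCm38.p6), found for 26762 probes. Genes of a list were averaged over evaluated probes, without the 10 genes. Members and lists were chosen with earlier results of these data known. Named are the 10 genes, the brightest genes of each list (at most 4 per tissue), the 3 nearest in pattern, and genes said to be named after their values were seen. Calculations used Python 3.11.15, pandas 2.3.3 and limma 3.58.1, and were tested on simulated data. Alternatives were another percentile, quantile normalization, normexp on the median spot signal with an offset of 50, the authors' table, other filters and bounds, and a 4-fold threshold. Promoter windows were searched for 5 motifs.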

Additional observations from a re-analysis of the deposited data

Results flagged for a closer look

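Opposite directions in 2 tissues, each beyond 2 SD of the noise between spots, were seen for 4 of the 10 genes, beside 8.05% of the 39069 probes evaluated in 2 or more tissues. With the uterus labels of the authors' table the same held for 5 genes, *Saa1*, *Saa2*, *Saa3*, *Hpx* and *Lcn2*, beside 11.6% of probes, and no longer for *Orm1* and *Orm2*. With 1 array per group the difference between tissues was not tested. *Saa2* had log2 ratios of −1.15 in liver and 1.13 in ovary, a difference of −2.28. *Orm1* had −0.72 in liver and at least 4.39 in uterus, so that the difference was −5.11 or further below 0. *Orm2* had −0.99 and at least 3.73, a difference of −4.72 or further below 0, both being bounds since the control uterus probes were not well above background. *Hpx* had −0.38 in liver, 0.39 in ovary and 3.99 in uterus, so that liver differed from ovary by −0.77 and from uterus by −4.37. The uterus values of the last 3 genes stand beside 18 of 18 hepatocyte markers that were also higher on the BHPF uterus array.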

How the results depend on the processing

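In the liver, 6 of the 10 genes were at least 2-fold lower with the 50th percentile, with a median log2 ratio of −1.14, and 1 was with a 4-fold threshold. Quantile normalization and normexp each gave 4 such genes, since *Orm2* then passed 2-fold, at −1.03 and −1.28. Normexp background correction gave a liver median of −0.65, with all 10 signs as reported. In the ovary, a 4-fold threshold left 1 gene lower and 0 higher, normexp also left 0 higher, and the median of 0.0 became 0.14 both with the authors' table and with own values in place of bounds. In the uterus, the authors' table with columns as headed gave 5 genes lower and 0 higher and a median of −1.80, with ratios of −4.07 for *Saa4*, −4.53 for *Orm1*, −4.17 for *Orm2*, −3.99 for *Hpx* and −2.88 for *Apcs*. With its uterus columns exchanged, a choice made after the values were seen, the median was 1.80. Requiring a signal well above background in both uteri left 6 genes, with 1 higher and a median of −0.45, because that filter leaves out the 4 genes measured against a bound. The median of 1.46 became 1.23 with normexp and 1.80 with own values or without a filter on dim probes. After subtraction of a liver share, 3 genes were higher, with a median of 0.091 for the share over all liver-specific probes and −0.083 for that over the brighter ones. The other scalings (quantile normalization and the 75th percentile over probes above background on all 6 arrays) changed no sign in any tissue. No paired analysis was possible because each group had 1 array, and for the same reason no array could be left out.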
